A study of Mus musculus with 3 samples.

Results

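Transcript levels of 9 genes of tendon and cartilage were read in wounded adult mouse fibroblasts. The genes, Scx, Mkx, Tnmd, Comp, Cilp, Angptl7, Sox9, Acan and Chad, were taken by name from a table of 43472 genes, of which 20322 had reads. They were picked with their values in these same libraries known, so the values below are a description and carry no test. The cells were primary fibroblasts grown from collagenase-digested tail tips of C57BL/6 mice. Monolayers were scratched to resemble a wound and then received, for 5 h, the soluble micrograft (MG), a cell-depleted extract of disrupted mouse skin, in the presence of PD0325901, an inhibitor of the ERK-activating kinase MEK. All 3 RNA-seq libraries carried this treatment and are labelled replicates 1, 2 and 3 of 1 condition. Neither the animals behind each replicate nor a step that parted skin from the other tissues of the tail is given in the sources used here. Cultures without MG or without the inhibitor were not analysed here, so no effect of either was computed.

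Tendon cells are fibroblast-like cells that lay down parallel collagen fibres, and cartilage cells embed themselves in a gel of collagen and proteoglycan. Scleraxis (Scx) and Mohawk (Mkx) are transcription factors of the tendon lineage, and SOX9 is the transcription factor that cartilage formation requires. Tenomodulin (Tnmd) is a membrane protein of mature tendon cells and a known target of scleraxis. COMP, CILP, aggrecan (Acan) and chondroadherin (Chad) belong to the matrix of cartilage, and COMP is also abundant in tendon. Angptl7 encodes a secreted angiopoietin-like protein that occurs in cornea, ligament and other connective tissues. In bulk RNA, fewer cells of a type and less RNA per cell cannot be told apart.

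Each library held between 17244505 and 27037783 reads assigned to genes. The deposited values are normalized counts, in which the reads of a library are divided by 1 size factor. A single read was worth 0.868, 0.705 and 1.19 normalized counts in the 3 replicates. Replicate 2 stood apart from replicates 1 and 3 across the transcriptome, so the mean, span and rank of the 9 genes are also given without it. Patterns over the 3 libraries and counts of genes apart in replicate 2 rest on that library and have no value without it. Of the 13154 genes with a mean of at least 10 normalized counts, 4.87% lay more than 2-fold below both other libraries in replicate 2 and 5.2% lay more than 2-fold above. Of 8 genes listed for fibroblasts, 7 passed 10 normalized counts in all 3 libraries, as did 12204 of all 43472 genes. The exception, Dpp4, had 1.74, 12.7 and 0 normalized counts. Whether these genes part fibroblasts from tendon or cartilage cells was not tested. Pdgfrb, which encodes a receptor for platelet-derived growth factor, had 2894, 2942 and 3129 normalized counts. With a span of 1.08-fold it was the most even of the 7, while Thy1 spanned 9.54-fold and was highest in replicate 2.

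Upstream sequences are shown for the 3 genes that stand for the 3 patterns found below, since Angptl7 was lowest in replicate 2, Cilp was highest there and Tnmd was nearly even. RefSeq windows on GRCm38.p6 were found for 5 of the 9 genes, namely Tnmd, Cilp, Angptl7, Acan and Chad, and not for Scx, Mkx, Comp and Sox9. Each sequence holds the 250 bases before the RefSeq transcript start, written 5′ to 3′ on the strand of the gene. The gene positions given below come from GENCODE, and the starts can differ. The Tnmd window ends at 133851007, past the GENCODE start at 133850980. The Acan window ends at 79053225, short of the GENCODE start at 79053483. Capitals mark the E-box letters CANNTG, the core to which scleraxis and other basic helix-loop-helix factors are known to bind. The windows lie at chr4:148500463-148500712 (minus strand, Angptl7), chr9:65264930-65265179 (plus strand, Cilp) and chrX:133850758-133851007 (plus strand, Tnmd).
Angptl7: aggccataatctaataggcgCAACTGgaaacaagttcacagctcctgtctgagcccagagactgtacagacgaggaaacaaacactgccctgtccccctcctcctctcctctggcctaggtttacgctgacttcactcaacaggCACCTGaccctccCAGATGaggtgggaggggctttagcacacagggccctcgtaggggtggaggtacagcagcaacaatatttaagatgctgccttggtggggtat
Cilp: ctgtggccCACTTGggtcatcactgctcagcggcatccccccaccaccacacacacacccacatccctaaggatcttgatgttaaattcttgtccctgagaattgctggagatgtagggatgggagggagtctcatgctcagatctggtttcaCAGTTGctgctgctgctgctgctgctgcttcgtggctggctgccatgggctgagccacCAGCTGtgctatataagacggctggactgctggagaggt
Tnmd: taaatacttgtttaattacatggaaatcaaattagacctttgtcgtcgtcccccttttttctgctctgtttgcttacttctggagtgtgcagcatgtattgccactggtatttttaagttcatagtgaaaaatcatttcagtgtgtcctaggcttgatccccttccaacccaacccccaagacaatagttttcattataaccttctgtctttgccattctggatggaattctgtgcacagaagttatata
The Angptl7 window held 3 E-boxes, with first bases at -230, -106 and -93 from the start, and the Cilp window also held 3, at -242, -97 and -39. None was found in the Tnmd window, and the Acan and Chad windows held 1 each. E-box letters were present in 66.2% of all 32851 windows of this length. The middle E-box of Angptl7 reads CACCTG, which was found on either strand in 17.2% of all windows and in none of the other 4. Angptl7 also held AACAAT, a core to which SOX proteins are known to bind, at -33, against 9.42% of windows. The AP-1 letters TGANTCA, present in 6.75% of windows, were not in any of the 5. These searches covered both strands, and CACCTG is itself a form of CANNTG. A match is a string of letters in a window and was not tested as a binding site.

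The tendon transcription factors were read first. Scx (chromosome 15, 76457452 to 76459458, plus strand, GRCm38) had 2470.4 normalized counts in replicate 1, 168 in replicate 2 and 1381 in replicate 3. Replicate 2 was far below the others, and replicates 1 and 3 differed by 1.79-fold. The mean was 1339.9 ± 1152 normalized counts (SD, n = 3), and it was 1926 without replicate 2 and 775 without replicate 1. Scx lies inside Bop1 on the opposite strand, and the exons of the 2 genes share no base. Mkx (chromosome 18, 6934518 to 7004780, minus strand) had 139, 47.9 and 169 normalized counts, again with replicate 2 as the lowest. Its highest library was 3.54-fold above its lowest, against 14.7-fold for Scx. Replicates 1 and 3 differed in Mkx by 1.22-fold, and the mean was 119 ± 63.2 normalized counts (SD, n = 3), or 154 without replicate 2. A predicted transcript on the same strand shares 201 exon bases with Mkx, and reads from those bases cannot be told apart between them.

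**Figure D1:**
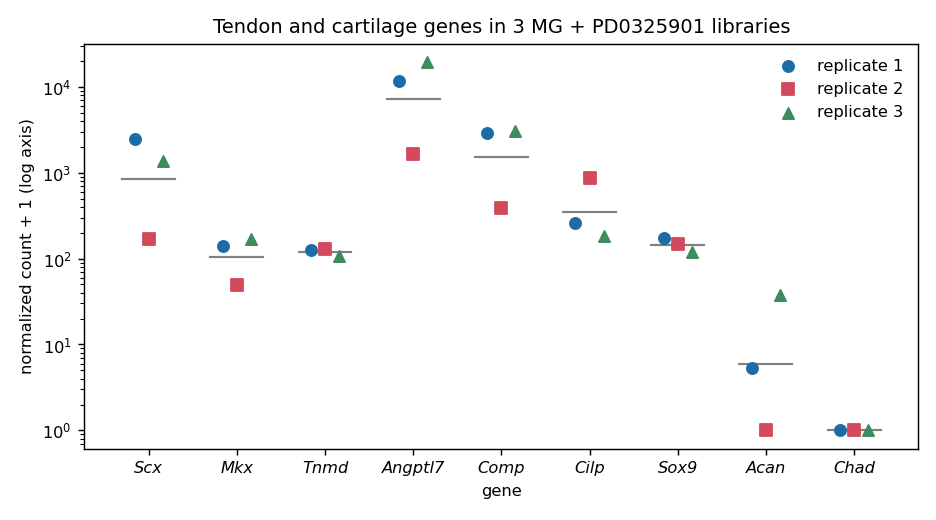
Normalized count + 1 (log axis) of each of the 9 genes, with 1 point per library and a grey line at the mean of the log values. Replicate 2 (squares) is lowest for Scx, Mkx, Angptl7, Comp and Acan and highest for Cilp, while the 3 points of Tnmd and Sox9 nearly coincide and Chad lies at 0 reads in all libraries.

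Tnmd, on the X chromosome from 133850980 to 133865577, was the most even of the genes with reads. It had 124, 127 and 107 normalized counts, which average 119 ± 10.95 (SD, n = 3), or 115 without replicate 2. The libraries spanned 1.19-fold, while counting error alone was 8.36%, 7.45% and 10.5% of these values. The Tnmd level thus did not follow that of Scx. Per kb of exon, Scx was 13.4-fold above Tnmd in replicate 1 and 8.73-fold above it in replicate 3, and in replicate 2 it was at 0.895 of the Tnmd level.

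Angptl7 (chromosome 4, 148495183 to 148500460, minus strand) was the most abundant of these genes in every library. It had 11776 normalized counts in replicate 1, 1643 in replicate 2 and 19214 in replicate 3, a mean of 10878 ± 8820.0 (SD, n = 3), or 15495 without replicate 2 and 6709 without replicate 3. Replicate 2 was 7.17-fold below the nearer of the others, which differed by 1.63-fold. Angptl7 lies inside Mtor on the opposite strand, without shared exon bases. Comp (chromosome 8, 70373558 to 70382066) had 2900.3, 387 and 3082 normalized counts. Replicates 1 and 3 were within 1.06-fold of each other, and replicate 2 was 7.50-fold below the nearer of them. The mean of Comp was 2123 ± 1506 normalized counts (SD, n = 3), or 2991 without replicate 2. Comp and Angptl7 kept a similar proportion to each other, as Comp per kb was 0.179, 0.171 and 0.117 of Angptl7 in the 3 libraries. Comp encodes a pentameric protein that binds collagen fibrils.

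Cilp, the cartilage intermediate layer protein (chromosome 9, 65265180 to 65280605), ran the other way. It had 256, 859.6 and 184 normalized counts, with replicate 2 the highest by 3.36-fold over replicate 1. Replicates 1 and 3 differed by 1.39-fold. Per kb, Comp was 16.2-fold above Cilp in replicate 1 and 24.0-fold above it in replicate 3, but at 0.645 of the Cilp level in replicate 2. The order of the 2 matrix genes was therefore turned in that library. The mean of Cilp was 433 ± 371 normalized counts (SD, n = 3), and 219.9 without replicate 2.

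Sox9 (chromosome 11, 112782224 to 112787760) was present at a modest and even level. It had 171, 149 and 117 normalized counts, which average 146 ± 27.0 (SD, n = 3), or 144 without replicate 2. Replicate 1 exceeded replicate 3 by 1.46-fold, with replicate 2 between them. Acan, the gene of the main cartilage proteoglycan (chromosome 7, 79053483 to 79115099), was near the limit of detection. It had 5 reads in replicate 1, none in replicate 2 and 31 in replicate 3, which equal 4.34, 0 and 36.7 normalized counts. The exact Poisson 95% intervals of the libraries with reads were 1.41 to 10.1 and 25.0 to 52.2 normalized counts, and they cover counting error only. For a count of 0 a fixed limit of 3 reads was set, or 2.11 normalized counts in replicate 2, where the exact interval reached 2.60. The measured value of replicate 3 was 17.4-fold above the fixed limit. The Acan mean of 13.7 ± 20.1 normalized counts (SD, n = 3) rested on replicate 3, as it was 2.17 without that library and 20.5 without replicate 2. Chad (chromosome 11, 94565047 to 94569127) had no read in any library, where the fixed limit was 2.61, 2.11 and 3.56 normalized counts. The exact intervals of Chad reached 3.20, 2.60 and 4.37. It lies inside Acsf2 on the opposite strand and shares no exon base with it. Sox9 was thus read in every library, while Acan and Chad were at 0 in replicate 2.

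Counted together, 7 of the 9 genes passed 10 normalized counts in all 3 libraries, against 12204 of all 43472 genes. With Acan, 8 reached a mean of 10, against 13154 of all genes. Of these 8 genes, 5 lay more than 2-fold below both other libraries in replicate 2 (Scx, Mkx, Comp, Angptl7 and Acan), where the share over all genes was 4.87%. Cilp was the 1 gene more than 2-fold above, where that share was 5.2%. The call of Acan in replicate 2 sets 0 reads against 5 in replicate 1. Their exact Poisson 95% intervals, 0 to 2.60 and 1.41 to 10.1 normalized counts, overlap. The span of Acan has a finite size only through the pseudocount of 1. In replicate 3 Acan was the 1 gene more than 2-fold above, against 1.28% of all genes. None was that far from both others in replicate 1, against 1.97% of all genes below and 2.29% above, nor was any that far below in replicate 3, against 2.3%. A span over libraries of more than 2-fold was seen in 6 of the 8 genes and in 26.5% of all genes, one of more than 5-fold in 4 (Scx, Comp, Angptl7 and Acan) against 5.06%, and one of more than 10-fold in 3 (Scx, Angptl7 and Acan) against 1.92%. The lowest library was replicate 2 for 5 genes (37.5% of all genes), replicate 3 for 3 (28.6%) and replicate 1 for 0 (33.9%). The highest was replicate 3 for 4 genes (27.8%), replicate 1 for Scx and Sox9 (31.9%) and replicate 2 for Tnmd and Cilp (40.3%). Without replicate 2 the number that spanned more than 2-fold was 1, and that gene was Acan. Nothing is read from these counts, because the genes were chosen on the same values.

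Levels of different genes were compared per kb of exon. Ordered by the mean of the 3 libraries, Angptl7 had 5043 ± 4089 normalized counts per kb (SD, n = 3), Comp had 716 ± 508 and Scx had 668 ± 574. Next came Cilp with 102 ± 87.3 normalized counts per kb, Tnmd with 88.1 ± 8.09, Sox9 with 35.2 ± 6.53 and Mkx with 29.0 ± 15.4. Acan had 1.83 ± 2.69 normalized counts per kb, and Chad was at 0. Neighbours in this order overlapped in their ranges over libraries except at 2 places. The lowest library of Tnmd, 78.8 normalized counts per kb, was above the highest of Sox9, 41.4, and the lowest of Mkx, 11.7, was above the highest of Acan, 4.92. Angptl7 was above Comp in 3 of 3 libraries, although the ranges overlapped. Without replicate 2, Tnmd with 85.3 normalized counts per kb was ahead of Cilp with 51.7, and Mkx with 37.7 was ahead of Sox9 with 34.9.

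**Figure D2:**
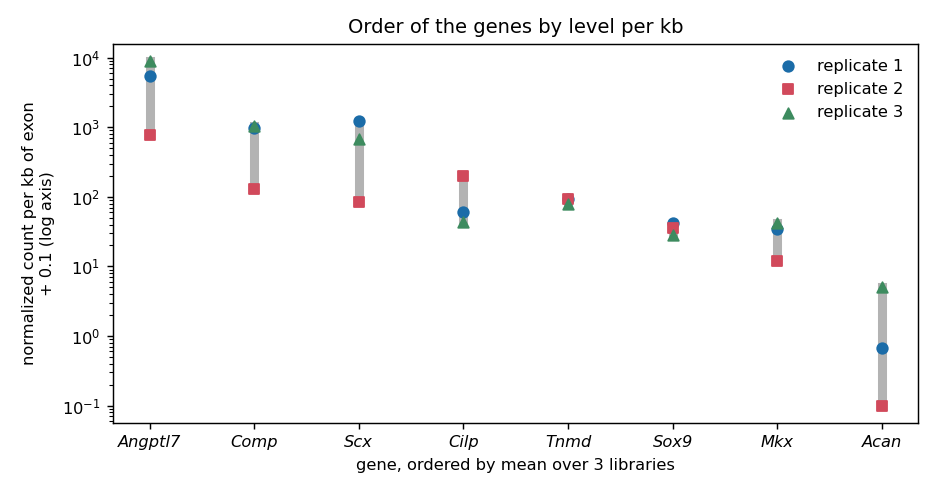
Normalized count per kb of exon + 0.1 (log axis) of the 8 genes with reads, ordered by mean, with 1 point per library and grey bars over the range. Angptl7 leads in every library, the bars of Comp and Scx overlap, and Cilp passes Comp in replicate 2 alone.

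The pattern over libraries was also compared between genes, as the distance between log2 values centred on their mean. With 3 libraries a pattern has only 2 free values, so likeness is a description. Among the 7 genes with a mean of at least 100, Tnmd and Sox9 were closest, at a distance of 0.235 on the log2 scale. Comp and Angptl7 followed at 0.482 and Scx and Comp at 0.772, while Scx and Cilp were farthest apart at 4.44. Of 9991 other genes with a mean of at least 100, the closest to Scx were Tnfsf11, which encodes the osteoclast factor RANKL, Clec2h and Cpxm2, at 0.319 to 0.369. The closest to Comp were AA467197, Cd99 and Cbr2, from 0.234 to 0.342. Those closest to Angptl7 were Ptpn22, Pcolce2 and Homer2, from 0.139 to 0.338. No gene lay within 0.2 of Scx or Comp, and 1 lay within 0.2 of Angptl7. Mkx was nearest to Lrrc8d, Sdc4 and Bdkrb1, with 28 genes within 0.2. For Cilp the nearest were Runx1t1, Siglecg and Cxcl12, with 11 genes within 0.2. The even patterns were common, with 1234 genes within 0.2 of Tnmd and 423 within 0.2 of Sox9. Tnmd was nearest to Ythdf1, Dync1li1 and Tinf2, and Sox9 to Bbip1, Mitd1 and Mxra7.

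Other genes of tendon and cartilage were read from lists grouped by known role, which were drawn up with earlier results of these data known, so their counts are a description. Over all genes with a mean of at least 10, the median log2 ratio of replicate 2 to the mean of the other libraries was 0.02. In the cartilage matrix list, leaving out the genes already described, 11 of 22 genes reached that mean, and 7 of these lay more than 2-fold below both other libraries in replicate 2 (4.87% of all genes) and none above (5.2%). The median log2 ratio of these 11 genes in replicate 2 was -1.58. Col11a1, a minor collagen of cartilage fibrils, had 1835, 415 and 3514 normalized counts. Prg4, which encodes the joint lubricant lubricin, had 8214, 1512 and 5155 normalized counts. Both were thus lowest in replicate 2, as were Hapln1, the link protein that ties aggrecan to hyaluronan, with 618, 253 and 933, and Cilp2, a relative of Cilp, with 233, 40.2 and 207. Cilp2 and Cilp therefore had opposite patterns. Col2a1, the main cartilage collagen, had 11538, 229 and 833 normalized counts. Of the 11 genes, 6 were highest in replicate 1. Col2a1 was the 1 gene of these more than 2-fold above both others there (2.29% of all genes). Col11a2 was highest there by 1.79-fold over the next library. Col9a3 was highest there by 2.06-fold on normalized counts, and under the limit once the pseudocount of 1 was added. Below a mean of 10, Ucma and Col9a2 were also more than 2-fold above both others in replicate 1. Replicate 1 did not hold the high Acan count, which was in replicate 3. Col2a1, Col11a1 and Hapln1 were thus read in every library, while other genes of the list had few reads or none, as Matn1, Cytl1, Clec3a and Snorc had no read, Col9a1 and Epyc had 1 read in 1 library, and Cnmd had at most 4.74 normalized counts.

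Among cartilage regulators other than Sox9, all 7 reached a mean of 10, and 6 were lowest in replicate 2, against 37.5% of all genes. Sox6 and Pax9 lay more than 2-fold below both others there (4.87% of all genes). In replicate 3, Sox6 and Pax1 lay more than 2-fold above both others (1.28% of all genes), and 5 of the 7 were highest (27.8% of all genes). Sox5 and Sox6 encode partners of SOX9, and Sox6 had 115, 35.9 and 299.9 normalized counts while Sox5 had 59.9, 35.2 and 85.3. Pax1 and Pax9, which act in the forming vertebral column, had 106, 72.6 and 321 and 181, 54.3 and 162 normalized counts. Trps1 spanned 1.63-fold and Runx2 1.45-fold. The partners of SOX9 thus varied more between libraries than Sox9 itself. The median log2 ratio of the 7 regulators in replicate 2 was -1.001.

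The tendon matrix list, without the genes already described, was split. Of 17 genes with a mean of at least 10, 4 lay more than 2-fold below both others in replicate 2 (Dcn, Fmod, Lum and Itga11, against 4.87% of all genes) and 2 lay above (Col14a1 and Thbs2, against 5.2%), and the median log2 ratio was -0.08. Fmod, a small proteoglycan that binds collagen fibrils, was 12.3-fold below the nearer library and so moved alongside Comp and Scx. Col14a1 went the other way, with 20.8, 1520 and 7.11 normalized counts, and replicate 2 was 72.9-fold above the next library. In replicate 3, 2 of the 17 genes lay more than 2-fold below both others (Col14a1 and Thbs4, against 2.3% of all genes). Lum, a related proteoglycan, had 5073, 289 and 1164 normalized counts, with replicate 1 also more than 2-fold above the others. Thbs2 and Thbs4 belong to the same thrombospondin family as Comp, but neither was lowest in replicate 2. Thbs2 had 4191, 13460.1 and 3892 normalized counts, a pattern like that of Cilp, and Thbs4 had 1957, 2916 and 469. The fibrillar collagens Col1a1, Col1a2, Col3a1, Col5a1 and Col5a2 spanned only 1.35-fold to 1.80-fold. Of the other tendon regulators, 2 of 5 reached a mean of 10. Eya1 had 14.8, 30.3 and 13.04 normalized counts, and the immediate early gene Egr1 had 57.3, 16.2 and 30.8. Egr1 lay within 2-fold of the nearer library in replicate 2, and Eya1 was 2.05-fold above the next library on normalized counts and under the limit once the pseudocount of 1 was added.

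**Figure D3:**
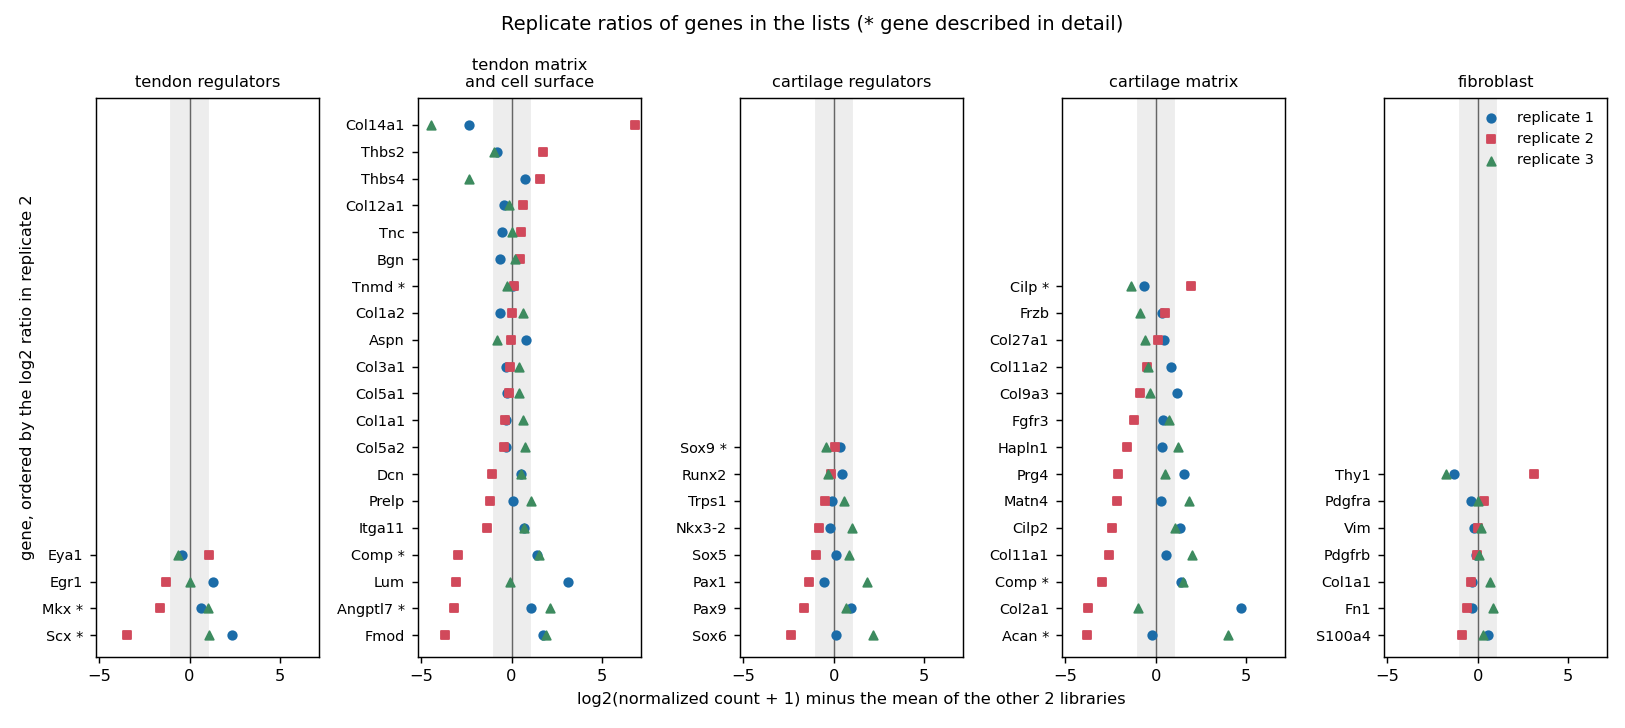
Log2(normalized count + 1) of each library minus the mean of the other 2 libraries, for the genes of 5 lists with a mean of at least 10, with the band from -1 to 1 shaded. In the cartilage matrix list most squares (replicate 2) lie left of the band and Cilp lies right of it, while in the fibroblast list 6 of 7 genes stay inside the band in every library and Thy1 does not.

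Genes of signals that are known to induce tendon and cartilage were read next. Of 11 such genes, 10 reached a mean of 10 and 2 of these (20%) spanned more than 2-fold, near the 26.5% of all genes. Gdf5, a growth factor of joint formation, had 202, 115 and 586 normalized counts and was more than 2-fold above both others in replicate 3. Tgfb3, a growth factor that acts on tendon cells, had 8974, 4586 and 5853 normalized counts, and its mediator Smad3 had 1573, 1685 and 1401. Tgfb3 was thus also lowest in replicate 2, by 1.28-fold. In that library 5 of the 10 genes were lowest (37.5% of all genes), and Tgfbr1, Tgfbr2 and Smad3 were highest (40.3% of all genes). The median log2 ratio of the 10 genes in replicate 2 was -0.22. In the list of hypertrophic cartilage and bone, Alpl, a phosphatase of mineralizing cells, had 1074, 65.5 and 33.2 normalized counts. Spp1, which encodes osteopontin, had 60123, 18077 and 19572. Of the 10 genes of this list, 5 reached a mean of 10. Alpl and Spp1 were the 2 more than 2-fold above both others in replicate 1 (2.29% of all genes). Col2a1 was also high in replicate 1, and Scx was highest in the same library. Ibsp went another way, with 6.95, 17.6 and 7.11 normalized counts from at most 25 reads. It was more than 2-fold above both others in replicate 2 (5.2% of all genes). Pth1r had 307, 55.7 and 236 normalized counts, lowest in replicate 2. Col10a1, the collagen of hypertrophic cartilage, was even, with 971, 773 and 779 normalized counts. Sp7, a defining transcription factor of bone-forming cells, had no read in any library, and Bglap had 1 read in replicate 2.

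Markers of other cell types were set beside these values. The notochord genes T, Noto, Shh and Foxa2 had no read, and the list of 8 summed to 1114, 2062 and 536 normalized counts, carried by Cd24a and Krt19. The keratinocyte list summed to 1597, 330.5 and 1527 over its 8 genes, of which 2 reached a mean of 10 (Sfn and Krt10), while Krt5, Krt14, Krt15 and Krt1 had at most 2.37. That sum moved with Scx and Comp because of Sfn. The skeletal muscle list summed to 2641, 8494 and 5664 over 7 genes, with 2 at a mean of 10 (Des and Acta1), and Myod1, Pax7 and Myf5 at 0. Endothelial genes summed to 90.3, 244 and 55.7, with 2 of 6 at a mean of 10 (Tek and Egfl7), and Cdh5 had at most 1.19 normalized counts. The high sum in replicate 2 was carried by Tek, with 6.95, 185 and 2.37, while Egfl7 had 69.5, 53.6 and 49.8. Leukocyte genes summed to 165, 116 and 721, with 4 of 8 at a mean of 10, and Ptprc, the pan-leukocyte gene, had at most 1.74. Lyz2, a lysozyme gene of macrophages, had 123, 62.7 and 601 normalized counts. Laptm5 had 1.74, 4.93 and 36.7, and Adgre1 had 0, 6.34 and 23.7. These 3 were more than 2-fold above both others in replicate 3 (1.28% of all genes). Cd68, the other gene at that mean, was even, with 22.6, 33.1 and 27.3. Below that mean, Cd74 was highest in replicate 1, at 14.8, and Tyrobp and Cd52 in replicate 3, at 15.4 and 9.48. The leukocyte sum was highest in replicate 3, as was Acan, and its part in that value was not tested. The 3 Schwann cell genes summed to 66.0, 21.1 and 119, with 1 at a mean of 10. That gene, S100b, which cartilage cells also express, had 66.0, 14.8 and 114 normalized counts, lowest in replicate 2 like Scx and Comp, while Sox10 had at most 2.37. Of the fibroblast list, Thy1 had 2031, 15760.0 and 1652 normalized counts, high in replicate 2 like Cilp. The other 6 fibroblast genes with a mean of 10 spanned between 1.08-fold and 1.97-fold. The part of any of these markers in the levels of tendon and cartilage genes was not tested.

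**Figure D4:**
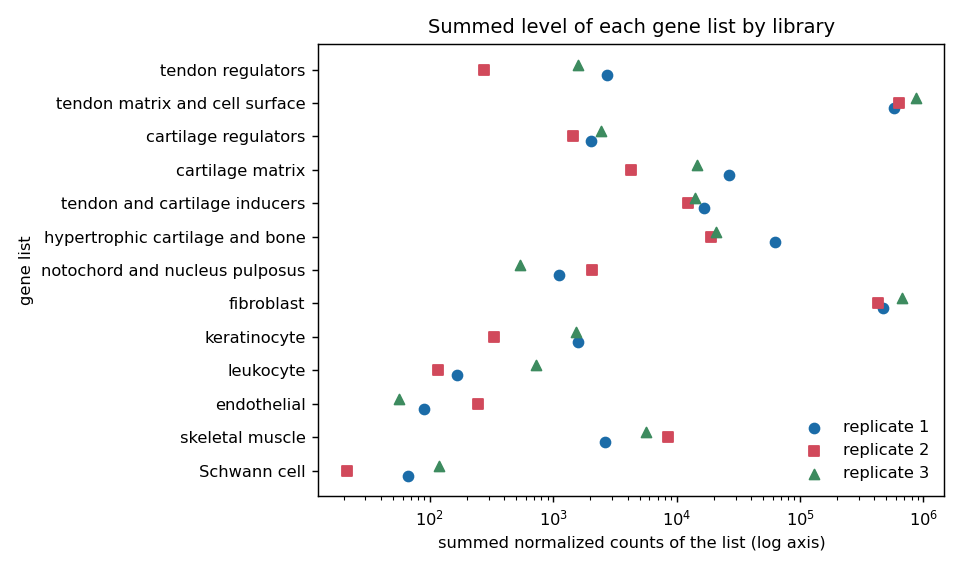
Summed normalized counts (log axis) of the 13 gene lists, with 1 point per library. Replicate 2 (squares) has the lowest sum for 9 of the 13 lists, fibroblast, inducer, bone, keratinocyte, leukocyte and Schwann cell lists included, and the highest for the notochord, endothelial and skeletal muscle lists. The sum over all genes was also lowest in replicate 2, with 19572841, 19051025 and 20439403 normalized counts in the 3 libraries. Some list sums rest on few genes, as Tek carries the endothelial sum in replicate 2.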

How the data were processed

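RNA-seq was available from 3 libraries of 1 condition. Per the methods and the submitters' processing notes, reads were aligned to mm10 with TopHat2 2.0.13 and counted per gene with HTSeq 0.5.3p3. Which annotation and strand setting the counting used is not given in the sources used here. The deposited signal per gene is its count after the authors scaled each library by a single size factor. In each library 100% of values were whole multiples of 1 read (within 0.01 reads), and the recovered reads summed to 22540518, 27037783 and 17244505. A further 3 columns of per-sample values matched no sample and were not used.

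Means are of normalized counts with their SD, and a pseudocount of 1 was added before taking log2. A library was called apart at more than 2-fold from both others, among the 13154 genes whose mean reached 10. Positions and exon lengths came from GENCODE M21 (GRCm38, the mm10 assembly), and upstream sequences from RefSeq. The 9 genes were all named, as were the 3 genes of closest pattern for each with a mean of at least 100. The 13 lists held 129 different genes, and 3 were found by an older symbol. Some genes first listed are not reported here. Genes and lists were chosen with earlier results of these data known. No groups were compared by a test, as there was 1 condition, and replicates measure only the spread between these cultures. Python 3.11.15, numpy 2.4.6, pandas 2.3.3 and scipy 1.17.1 were used, and TMM factors for an alternative scaling came from edgeR 4.0.16 (R 4.3.3). The code that calls a library apart was tested on simulated counts with known folds, which give no null for the counts reported. Other pseudocounts, minimums, fold limits, scalings and each replicate left out were tried.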

Additional observations from a re-analysis of the deposited data

How the results depend on the processing

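Replicate 2 decided most of the spread. The number of genes with a range over 2-fold was 6, and leaving out a replicate gave 1 to 6, with 1 when replicate 2 was dropped. From 5 to 9 of the 9 genes stayed at their rank per kb when a replicate was dropped, 5 of them when that was replicate 2, and all 9 kept it with the longest transcript as length. At a 1.5-fold limit 1 gene was above both others in replicate 1 and 2 were in replicate 3. At a 4-fold limit 0 genes were above in replicate 2, and at a mean of at least 100 there were 0 above in replicate 3, by construction. Genes below both others in replicate 2 numbered 4 to 5 under every setting tried. Of the 21 genes named for the closest pattern, 8 stayed with a minimum mean of 1000, since fewer genes were then compared. The log2 ratio of Acan in replicate 2 was -3.83, and -1.37 with a pseudocount of 10, as it rests on few reads. Neither scaling to equal totals nor TMM moved a mean by more than 1 SD or turned the direction of any of the 6 genes apart in replicate 2. No paired analysis was possible because there was 1 condition. The few reads of Acan and Chad make their values imprecise.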
